A study of Mus musculus with 6 samples.

Results

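The nuclear-encoded subunits of oxidative phosphorylation were collected by gene symbol, taking every gene whose symbol begins with Ndufa, Ndufb, Ndufc, Ndufs or Ndufv (without the Ndufaf assembly factors), Sdha to Sdhd, Uqcr, Cox4i to Cox8, or Atp5. Of 92 matching genes, 5 pseudogenes were dropped, 3 of them with -ps in the symbol and 2 by their reference annotation, which left 87 of the 27179 genes in the count table. By symbol, 40 belong to complex I, 4 to complex II, 8 to complex III, 18 to complex IV and 17 to complex V. They were compared by bulk poly(A) RNA-seq in Lin-CD24-Pdgfra+ fibroblasts sorted as CD34hi or CD34lo from the mammary glands of pubertal FVB/N mice (FVB/NJ in the study's methods) at 6 weeks of age, with 3 libraries per population. Each library came from a pool of 2 mice, and both populations were sorted from the same 3 pools, so that libraries of the same number share their animals. The labels name no transgene or treatment, and the groups were set apart by the CD34 gate alone.

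Oxidative phosphorylation takes place in the inner mitochondrial membrane. Complex I (NADH dehydrogenase) and complex II (succinate dehydrogenase, which is also an enzyme of the TCA cycle) hand electrons to ubiquinone, complex III passes them to cytochrome c and complex IV (cytochrome c oxidase) passes them to oxygen, while complex V (ATP synthase) makes ATP from the proton gradient built on the way. Complex II is made from nuclear genes alone, whereas every other complex also holds subunits encoded by mitochondrial DNA. Several complex IV subunits, as well as Ndufa4, come in a widely expressed form and in a form that is restricted to certain tissues or induced at low oxygen. Ndufa4 is named after complex I but is known as a subunit of complex IV, and it is kept here, with its paralog Ndufa4l2, under the complex its symbol names.

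The promoters of Sdha, Sdhb, Cox7a2l and Ndufs8 are shown, 4 of the 6 subunits with a promoter entry that differed between CD34hi and CD34lo fibroblasts. These 4 are expressed well above the detection floor. The promoters of Ndufb7 (257 to 566 counts per library) and Cox6b2 (32 to 91), which also differed, are not shown, though both exceeded a floor of 3 counts too. Each sequence runs 5′ to 3′ from 250 bases before to 30 bases after the RefSeq transcript start (build GRCm38.p6). Capitals mark every match, on either strand, to the letters of NRF1 (GCGCA, any base, GCGC), ETS/GABP (CCGGAAG), YY1 (AAGATGGC), Sp1 (GGGCGG), the CCAAT box (CCAAT) or the hypoxia response element bound by HIF (ACGTG), none of which contains another. The Sdha promoter lies at chr13:74350211-74350490 on the minus strand, that of Sdhb at chr4:140961021-140961300 on the plus strand, that of Cox7a2l at chr17:83514304-83514583 on the minus strand and that of Ndufs8 at chr19:3912745-3913024 on the minus strand.
Sdha promoter: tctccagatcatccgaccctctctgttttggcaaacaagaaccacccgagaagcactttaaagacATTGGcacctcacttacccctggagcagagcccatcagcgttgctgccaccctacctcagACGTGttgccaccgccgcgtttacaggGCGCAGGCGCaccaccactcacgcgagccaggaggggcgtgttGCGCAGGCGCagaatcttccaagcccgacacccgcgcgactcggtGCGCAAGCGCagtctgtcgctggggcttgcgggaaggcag
Sdhb promoter: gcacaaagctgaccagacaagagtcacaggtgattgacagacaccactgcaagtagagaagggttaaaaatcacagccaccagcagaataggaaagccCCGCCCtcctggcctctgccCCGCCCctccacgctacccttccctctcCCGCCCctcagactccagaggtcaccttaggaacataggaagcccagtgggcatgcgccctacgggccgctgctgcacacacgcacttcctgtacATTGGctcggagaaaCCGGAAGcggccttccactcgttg
Cox7a2l promoter: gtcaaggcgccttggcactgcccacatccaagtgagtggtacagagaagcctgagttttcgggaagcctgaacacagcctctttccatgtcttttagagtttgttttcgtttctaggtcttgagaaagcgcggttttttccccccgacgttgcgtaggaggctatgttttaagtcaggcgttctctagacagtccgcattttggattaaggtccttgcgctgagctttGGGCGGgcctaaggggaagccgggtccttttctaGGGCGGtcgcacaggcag
Ndufs8 promoter: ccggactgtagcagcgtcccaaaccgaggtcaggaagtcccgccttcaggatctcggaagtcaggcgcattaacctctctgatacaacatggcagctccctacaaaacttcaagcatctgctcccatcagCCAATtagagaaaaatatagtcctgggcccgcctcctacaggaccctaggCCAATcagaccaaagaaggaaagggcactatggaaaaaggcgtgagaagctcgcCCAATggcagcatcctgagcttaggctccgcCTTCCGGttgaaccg
Sdha, the flavoprotein of complex II, carried 3 NRF1 matches, 1 CCAAT box and 1 HIF match. Its partner Sdhb, the iron-sulfur subunit, carried 3 Sp1 matches, 1 CCAAT box and 1 ETS match and no NRF1 match. Cox7a2l held 2 Sp1 matches, and Ndufs8 held 3 CCAAT boxes and 1 ETS match. RefSeq promoters were matched for 70 of the 87 subunits (75 promoters). The NRF1 letters stood in 17 of these 75 promoters (22.7%) and in 4.41% of all 32851 promoters of the same length, and the ETS letters in 17 (22.7%) and 8.45%. YY1 letters were found in 4 member promoters (5.33%, against 2.29% of all). The shares for Sp1 (38.7% against 34.7%), the CCAAT box (41.3% against 36.1%) and HIF (22.7% against 18.5%) lay closer to those of all promoters. These are letter matches and not measured binding sites.

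Library totals ranged from 28764779 to 52402410 counts. Cd34 averaged 2571 ± 75.3 CPM (counts scaled by library size, SD, n = 3) in CD34hi and 634 ± 158 CPM in CD34lo libraries, with no overlap. Pdgfra, for which both populations were sorted, was present in every library (637 to 922 CPM in CD34hi and 1036 to 1416 CPM in CD34lo). It was higher in CD34lo (log2 fold change -0.74 ± 0.19 SE, adjusted p = 0.0148, edgeR). This call was lost without CD34hi pool 1 (0.0698), CD34hi pool 2 (0.0677) or CD34lo pool 3 (0.0534). Of the 5 fibroblast markers, Pdgfra among them, 1 passed towards CD34hi and 3 towards CD34lo (80% in all, beside 35.6% of all tested genes). Cd24a, against whose product the cells were gated, was at 14.3 to 21.8 CPM in CD34hi and 4.57 to 5.43 CPM in CD34lo (log2 fold change 1.90 ± 0.19 SE, adjusted p = 0.000103, edgeR). Markers of other cell types differed between the populations at low levels. The summed CPM of the 2 pericyte markers was 1.59 to 2.46 in CD34hi and 7.36 to 11.5 in CD34lo, that of the 5 macrophage markers 2.57 to 3.20 and 27.3 to 48.6, that of the 2 endothelial markers 5.86 to 19.6 and 21.9 to 41.1, and that of the 4 cycling-cell markers 7.23 to 15.9 and 16.2 to 28.7. Both pericyte markers passed the threshold towards CD34lo, as did 1 of the 2 endothelial and 2 of the 4 cycling-cell markers, but of the macrophage markers only Fcgr2b did, and it made up most of their sum. Both keratinocyte markers passed towards CD34hi (summed CPM 14.3 to 19.9 in CD34hi and 3.60 to 7.12 in CD34lo). Schwann and muscle markers moved both ways. Mbp (log2 fold change 1.88 ± 0.22 SE) and Tnnt3 (1.55 ± 0.22 SE) were higher in CD34hi and set the sums of their lists there (42.1 to 52.1 against 20.8 to 26.8 CPM, and 9.94 to 14.4 against 6.85 to 8.45 CPM), whereas 2 other Schwann markers and the muscle marker Des (-1.58 ± 0.26 SE) were higher in CD34lo. No marker gene was at 0 in all 6 libraries. The part of these cells in the subunit differences was not tested, and in bulk libraries a change in the share of a cell type cannot be told apart from a change in RNA per cell.

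Differences between CD34hi and CD34lo fibroblasts were small for most nuclear-encoded subunits and large for a few low-abundance forms. Of the 82 subunits with enough counts to be tested, 8 (9.76%) passed an adjusted p of 0.05 in the edgeR quasi-likelihood test, adjusted after Benjamini-Hochberg across all 15219 tested genes, beside 35.6% of all tested genes. Sdha, Sdhb, Cox7a2l and Ndufb7 were higher in CD34hi (4 of 82; 16.9% of all tested genes were called in this direction), and Ndufa4l2, Cox4i2, Cox6b2 and Ndufs8 were higher in CD34lo (4 of 82, beside 18.7% of all tested genes). The median log2 fold change of the 82 subunits, CD34hi against CD34lo, was 0.09 with an interquartile range of -0.05 to 0.22, whereas all tested genes had a median of -0.0064 and a range of -0.46 to 0.36. In 73 subunits (89.0%) the log2 fold change was smaller than 0.5 in either direction, beside 57.5% of all tested genes. The 3 CD34hi and 3 CD34lo libraries did not overlap in 22 of the 82 (26.8%), beside 50.1% of all tested genes. With the mouse pool as a block in the fit, 12 subunits passed, 8 higher in CD34hi and 4 in CD34lo, beside 40.5% of all tested genes (19.6% and 20.9% by direction), and with upper-quartile scaling the split was 3 to 5. Single libraries moved the CD34hi count: it was 1 without CD34hi pool 2 and 8 without CD34hi pool 3. With both libraries of a pool left out, 0 were higher in CD34hi and 1 in CD34lo without pool 1, 0 and 3 without pool 2, and 3 and 2 without pool 3. Of the 8 subunits, only Ndufa4l2 passed whichever pool was left out.

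**Figure D1:**
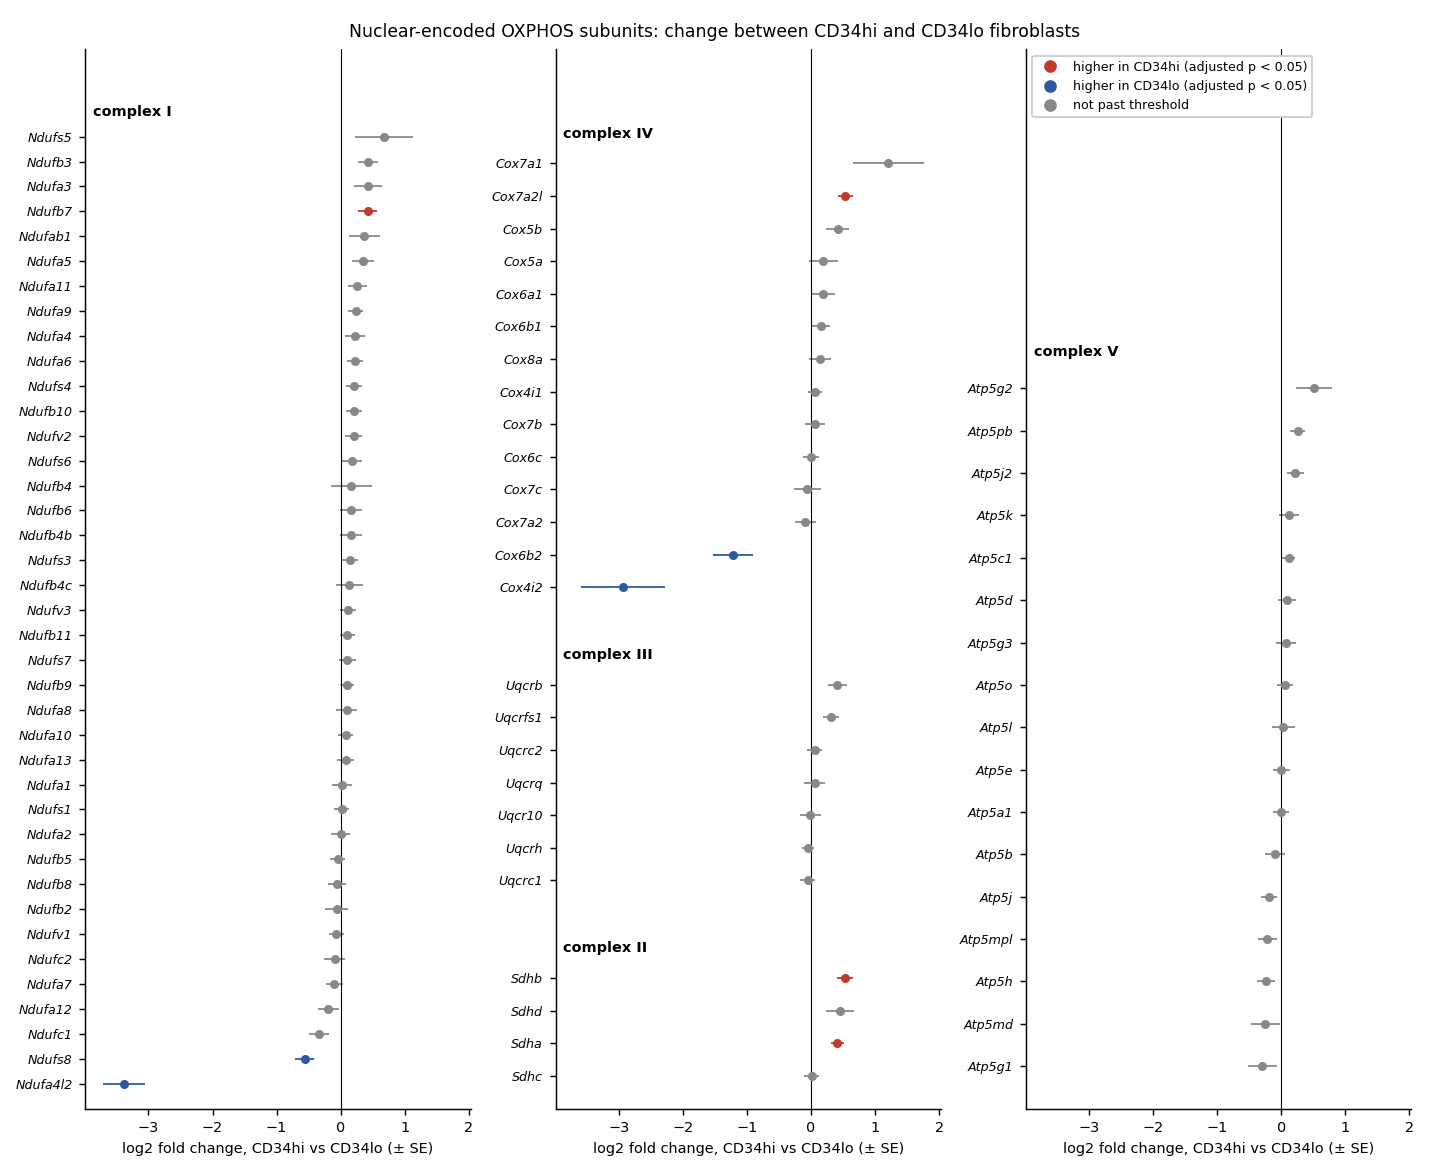
Log2 fold change (CD34hi against CD34lo, bars ± SE from the edgeR fit of 3 against 3 libraries) of the tested nuclear-encoded subunits, arranged by complex and ordered by value, with 1 of complex I not drawn. Of the 82 tested, 73 lie within 0.5 of 0, and the 8 past an adjusted p of 0.05 are coloured, with Ndufa4l2 and Cox4i2 farthest to the CD34lo side.

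Summed over the genes of a complex, length-scaled levels (RPKM, CPM divided by gene length in kilobases) stood apart between the populations for complex II only among the 5 complexes. The 4 complex II genes added up to 117, 121 and 105 RPKM in CD34hi pools 1, 2 and 3 and to 92.1, 90.9 and 88.7 RPKM in the CD34lo pools, a ratio of 1.27, 1.33 and 1.18 within pools. Most of this sum came from the called genes Sdha (mean 35.9 RPKM in CD34hi and 27.0 in CD34lo) and Sdhb (44.1 and 30.5). Sdhc hardly differed (30.8 and 30.6), so the sum restates the calls of Sdha and Sdhb. Of single tested genes, 50.1% did not overlap either. For the other 4 complexes the CD34hi and CD34lo libraries overlapped and the ratios within pools lay between 0.911 (complex V, pool 3) and 1.20 (complex IV, pool 2). In each of these, pool 2 gave the highest ratio and pool 3 the lowest. All 87 genes together gave 3639, 3531 and 2957 RPKM in CD34hi and 3515, 3053 and 3079 RPKM in CD34lo, and accounted for 0.264% to 0.323% of all counts in a library.

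**Figure D2:**
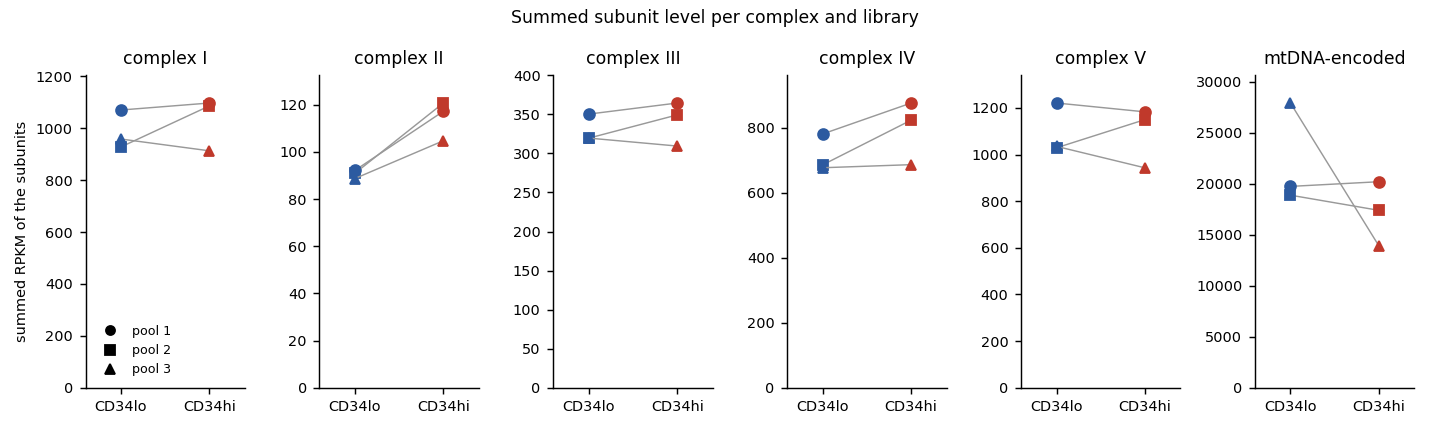
Summed RPKM of the nuclear-encoded subunits of each complex and of the 13 subunits encoded by mitochondrial DNA (mtDNA), per library, with lines joining the CD34lo and CD34hi library of the same mouse pool. The complex II lines run upward to CD34hi in all 3 pools (ratios 1.27, 1.33 and 1.18), and the steepest line for mtDNA-encoded subunits is that of pool 3 (ratio 0.498).

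Both catalytic subunits of complex II were higher in CD34hi, by 1.33-fold for Sdha and 1.45-fold for Sdhb. These 2 of the 4 complex II genes are 50%, beside 35.6% of all tested genes (16.9% towards CD34hi). In 3 of the 4 (75%) the libraries did not overlap, beside 50.1% of all tested genes. Sdha, which binds FAD and oxidises succinate, was at 102, 106 and 99.8 CPM in CD34hi pools 1, 2 and 3 and at 72.1, 83.3 and 76.0 CPM in CD34lo. All 3 CD34hi libraries lay above all 3 CD34lo libraries (log2 fold change 0.41 ± 0.11 SE, adjusted p = 0.0156, edgeR). Sdhb, whose iron-sulfur clusters carry the electrons onward, was at 48.3, 52.9 and 40.7 CPM in CD34hi and at 33.6, 31.4 and 33.3 CPM in CD34lo, again without overlap (log2 fold change 0.53 ± 0.13 SE, adjusted p = 0.0103). The 2 membrane anchors, which hold the ubiquinone site, did not pass the threshold. Sdhd was at 4.47, 4.20 and 4.50 CPM in CD34hi and 3.32, 3.88 and 2.44 CPM in CD34lo (log2 fold change 0.45 ± 0.22 SE, adjusted p = 0.144). For Sdhc the groups overlapped, with 39.1, 36.6 and 33.4 CPM in CD34hi and 38.97, 34.8 and 34.4 CPM in CD34lo (log2 fold change 0.01 ± 0.12 SE, adjusted p = 0.953). In both called subunits CD34hi was higher in 3 of 3 pools. Without CD34hi pool 2 neither call held (adjusted p of 0.0765 for Sdha and 0.0556 for Sdhb), while the fold changes were 0.40 and 0.45.

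Among the 40 genes named for complex I, Ndufa4l2 and Ndufs8 were higher in CD34lo and Ndufb7 was higher in CD34hi. These 3 of 40 are 7.5%, beside 35.6% of all tested genes, and the median log2 fold change was 0.11. The 7 core subunits, which hold the flavin, the iron-sulfur clusters and the quinone site, had a median of 0.01, and only Ndufs8 among them passed. Ndufs8, an iron-sulfur subunit near the quinone site, was at 14, 15.1 and 11.5 CPM in CD34hi and 21.4, 18.6 and 19.9 CPM in CD34lo, where it was 1.48-fold higher without overlap (log2 fold change -0.57 ± 0.14 SE, adjusted p = 0.0139). This call did not hold without CD34lo pool 1 (log2 fold change -0.49, adjusted p = 0.0533).

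The 33 other genes named for complex I are accessory subunits, which surround the core and help to assemble it, together with Ndufa4 and Ndufa4l2. Their median log2 fold change was 0.14 and 24 of 33 values were positive. In each direction 1 passed (6.06% in all, beside 35.6% of all tested genes). Ndufb7, of the membrane arm, was at 12.7, 12.9 and 10.9 CPM in CD34hi and 9.68, 9.31 and 8.26 CPM in CD34lo (log2 fold change 0.42 ± 0.14 SE, adjusted p = 0.0492). The CD34hi libraries lay above the CD34lo libraries in 3 of 3 pools, but the adjusted p was close to 0.05. The call was lost with upper-quartile scaling (0.0733), library totals alone (0.0772), no filter (0.0547), a minimum of 10 counts (0.0551) and limma-voom (0.0551), and on leaving out any of 5 of the 6 libraries, with adjusted p of 0.125 without CD34hi pool 1, 0.167 without CD34hi pool 2, and 0.0505, 0.0822 and 0.119 without CD34lo pools 1, 2 and 3. Ndufb3, another membrane arm subunit, was at 18.2, 16.3 and 14.5 CPM in CD34hi and 13.7, 10.5 and 12.2 CPM in CD34lo. Its libraries did not overlap, and its adjusted p of 0.0572 fell to 0.0321 with the pool as a block, to 0.0478 in DESeq2, to 0.0402 without CD34hi pool 3 and to 0.0383 without CD34lo pool 1. Ndufa3 was at 14.7, 12.3 and 12.4 CPM in CD34hi and 13.2, 7.44 and 8.62 CPM in CD34lo, with pool 1 of CD34lo among the CD34hi values. It passed only with the pool as a block (adjusted p of 0.0413 against 0.166) and without CD34lo pool 1 (0.0134). Ndufs5 was at 0.760, 1.08 and 0.573 CPM in CD34hi and 0.738, 0.396 and 0.322 CPM in CD34lo, with overlap. It had the largest positive value of the complex (0.67 ± 0.45 SE, adjusted p = 0.279), on 10 to 40 counts per library, and 21.7% of the 50-base windows of its transcripts also occur in transcripts of other genes.

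The largest difference of the whole set was that of Ndufa4l2, a low-oxygen-induced relative of Ndufa4. It was at 1.12, 0.414 and 0.794 CPM in CD34hi pools 1, 2 and 3 (50, 15 and 36 counts) and at 8.76, 9.13 and 6.75 CPM in CD34lo (475, 254 and 210 counts). All CD34lo libraries lay far above all CD34hi libraries, and the fitted level was 10.4-fold higher in CD34lo (log2 fold change -3.38 ± 0.33 SE, adjusted p = 9.2e-05), which passed the threshold under each of 17 alternatives. Ndufa4 itself was at 42.5, 44.7 and 35.1 CPM in CD34hi and 37.1, 28.5 and 38.8 CPM in CD34lo, with overlap (log2 fold change 0.23 ± 0.15 SE, adjusted p = 0.285). The pericyte markers Rgs5 (log2 fold change -1.46 ± 0.33 SE) and Mcam (-2.44 ± 0.33 SE) moved in the same direction as Ndufa4l2, and their part in its difference was not tested. Ndufa4l2 overlaps the oppositely oriented gene Shmt2 by 32 bases, and without strand information reads in that stretch cannot be told apart.

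**Figure D3:**
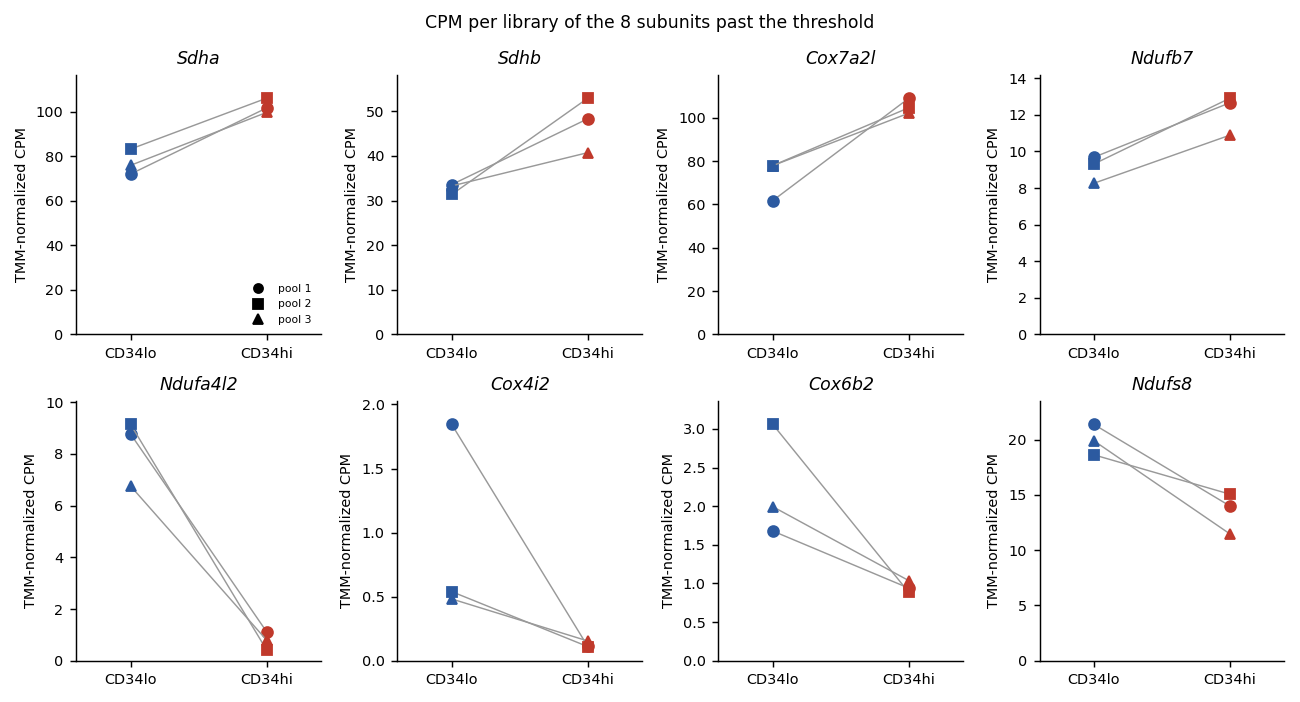
TMM-normalized CPM (axes start at 0) of the 8 subunits past an adjusted p of 0.05, 1 panel per gene, with lines joining the CD34lo and CD34hi library of each of the 3 mouse pools. The lines run upward to CD34hi in all 3 pools for Sdha, Sdhb, Cox7a2l and Ndufb7 and downward for Ndufa4l2, Cox4i2, Cox6b2 and Ndufs8, and the CD34lo library of pool 1 stands apart for Cox4i2 (1.84 CPM).

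None of the 7 tested complex III genes collected by symbol passed the threshold in edgeR, beside 35.6% of all tested genes. In edgeR 2 had an unadjusted p under 0.05, beside 45.5% of all tested genes, and 0 passed also by DESeq2 and limma-voom. The median log2 fold change of the 7 was 0.06. The complex III gene Cyc1, whose symbol differs, is given with the electron carriers. Uqcrfs1, the Rieske iron-sulfur protein, was at 31.7, 34.2 and 29.97 CPM in CD34hi and 27.7, 23.2 and 26.3 CPM in CD34lo, without overlap (log2 fold change 0.31 ± 0.12 SE, adjusted p = 0.0732). Uqcrb, a small subunit at the quinone site, was at 22, 20.03 and 17.5 CPM in CD34hi and 16.3, 15.8 and 12.6 CPM in CD34lo. It was higher in CD34hi in 3 of 3 pools, and its adjusted p of 0.0615 became 0.0236 with the pool as a block and 0.0397 without CD34hi pool 3. For Uqcrb, 43.4% of the transcript windows are shared with other genes, so that its counts may include reads from elsewhere or lack some of its own. Uqcrc1, a core protein, was at 62.5, 58.3 and 51.96 CPM in CD34hi and 65.5, 58.1 and 55.6 CPM in CD34lo, with overlap. Uqcrh, the hinge protein and the most abundant member of the complex per length, was at 75.6, 73.6 and 68.9 CPM in CD34hi and 75.5, 75.4 and 74.6 CPM in CD34lo. It differed by a log2 fold change of -0.05 ± 0.10 SE, but an unnamed gene on the opposite strand overlaps it by 1020 bases and was listed with 44029 counts beside 17683 for Uqcrh. Uqcr11 had 1 count in all libraries together and was not tested. An unnamed gene on the opposite strand, listed with 0 counts, overlaps it by 3812 bases. Whether reads of Uqcr11 were lost in counting was not tested.

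Of the 14 tested complex IV genes, Cox7a2l was higher in CD34hi and Cox4i2 and Cox6b2 were higher in CD34lo. These make 21.4%, beside 35.6% of all tested genes, and the median log2 fold change was 0.10. Cox7a2l, a relative of the Cox7a subunits that joins complexes III and IV into supercomplexes, was at 109, 105 and 102 CPM in CD34hi and 61.8, 77.9 and 77.9 CPM in CD34lo. All CD34hi libraries exceeded all CD34lo libraries, by 1.45-fold on the fitted scale (log2 fold change 0.54 ± 0.12 SE, adjusted p = 0.00909). The call held without any single library, but not without both libraries of pool 1 (adjusted p = 0.0769) or pool 2 (0.0538). For Cox7a2l, 17.8% of the transcript windows are shared with other genes. Cox5b, which binds zinc on the matrix side, was at 20.9, 22.5 and 15.6 CPM in CD34hi and 17.2, 13.5 and 13.5 CPM in CD34lo. Its groups overlapped through pool 3 of CD34hi and pool 1 of CD34lo, and its adjusted p of 0.0965 became 0.0479 with the pool as a block and 0.0263 without CD34hi pool 3. The widely expressed forms of the other subunits did not pass the threshold. Cox4i1 was at 144, 135 and 122 CPM in CD34hi and 130, 128 and 126 CPM in CD34lo. Cox6a1 was at 77.5, 73.05 and 53.9 CPM in CD34hi and 72.2, 54.6 and 52.1 CPM in CD34lo. In both, the CD34hi library of pool 3 fell below or among the CD34lo libraries. Cox6b1, which faces the intermembrane space, was at 41.4, 39.2 and 34.3 CPM in CD34hi and 40.4, 30.5 and 31.8 CPM in CD34lo. Cox7a2 was at 15.03, 13.1 and 10.6 CPM in CD34hi and 15.2, 12.6 and 13.2 CPM in CD34lo. In Cox7a2, too, CD34hi pool 3 was the lowest library. Cox7b was at 34.4, 33.9 and 25.3 CPM in CD34hi and 33.3, 26.5 and 29.9 CPM in CD34lo, and Cox8a at 64.1, 55.9 and 44.6 CPM and 58.3, 50.6 and 40.4 CPM. The groups of these 6 genes overlapped, with log2 fold changes from -0.09 to 0.19.

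The restricted forms of complex IV subunits were low in both populations, and 2 of them passed the threshold towards CD34lo. Cox4i2, the form of Cox4 used at low oxygen and in lung, was at 0.112, 0.110 and 0.154 CPM in CD34hi (5, 4 and 7 counts) and 1.84, 0.539 and 0.482 CPM in CD34lo (100, 15 and 15 counts). Its libraries did not overlap and the fitted difference was 7.64-fold towards CD34lo (log2 fold change -2.93 ± 0.65 SE, adjusted p = 0.00778), but CD34lo pool 1 alone held 100 of the counts. Without pool 1 in both populations the log2 fold change was -1.88 and the adjusted p 0.0794. As for Ndufa4l2, the pericyte markers were higher in CD34lo and their part was not tested. Cox6b2, known from testis, was at 0.939, 0.883 and 1.04 CPM in CD34hi (42, 32 and 47 counts) and 1.68, 3.06 and 1.99 CPM in CD34lo (91, 85 and 62 counts). It was 2.33-fold higher in CD34lo in 3 of 3 pools (log2 fold change -1.22 ± 0.31 SE, adjusted p = 0.0149). This call did not hold without CD34hi pool 1 (adjusted p = 0.0578) or CD34hi pool 2 (0.0605).

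Cox7a1 is the heart and skeletal muscle form of Cox7a. It was at 1.56, 1.35 and 0.992 CPM in CD34hi (70, 49 and 45 counts) and 0.166, 0.791 and 0.804 CPM in CD34lo (9, 22 and 25 counts). The libraries did not overlap, but the CD34lo pools were far apart, with pool 1 the lowest, and the difference did not pass the threshold (log2 fold change 1.21 ± 0.55 SE, adjusted p = 0.122). Of the 4 tested muscle markers, Tnnt3 was higher in CD34hi and Des in CD34lo, and the other 2 did not pass the threshold (median log2 fold change -0.15). Cox6a2 and Cox8b, also forms of heart and skeletal muscle, were too low to be tested. Cox6a2 had 3, 1 and 3 counts in CD34hi and 0 in each CD34lo library, and Cox8b had 1, 0 and 1 counts in CD34hi and 7, 5 and 6 in CD34lo. With a floor of 3 counts per library (0.0572 to 0.104 CPM), Cox6a2 did not exceed the floor in any library and Cox8b exceeded it in the CD34lo libraries. Cox8c and Cox7b2 had 0 counts throughout, which allows up to 3 counts in each library.

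Within each library the share of the restricted form in its pair, from RPKM, gives the same comparison independently of library scaling. Ndufa4l2 made up 0.981% ± 0.451 (SD, n = 3) of the summed RPKM of Ndufa4 and Ndufa4l2 in CD34hi and 11.01% ± 2.97 in CD34lo, with 1.33%, 0.471% and 1.14% in the CD34hi pools and 10.8%, 14.1% and 8.17% in the CD34lo pools. Cox6b2 was 1.86%, 1.85% and 2.46% of its pair in CD34hi and 3.36%, 7.72% and 4.98% in CD34lo, and Cox4i2 was 0.0724%, 0.0762% and 0.118% against 1.30%, 0.391% and 0.357%. For each of these 3 pairs all CD34lo libraries lay above all CD34hi libraries. The CPM of the restricted forms did so too, and the shares rest on the same counts, so they are no separate support. Cox7a1 went the other way, with 17.7%, 17.6% and 16.2% of its pair in CD34hi and 2.19%, 11.5% and 11.1% in CD34lo. Among forms too low to be tested, Cox8b was 0.0523%, 0% and 0.0742% of its pair in CD34hi and 0.332%, 0.530% and 0.712% in CD34lo. Cox6a2 went the other way, with 0.0700%, 0.0306% and 0.0992% in CD34hi and 0% in each CD34lo library. The widely expressed form held the larger share of its pair in every library.

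**Figure D4:**
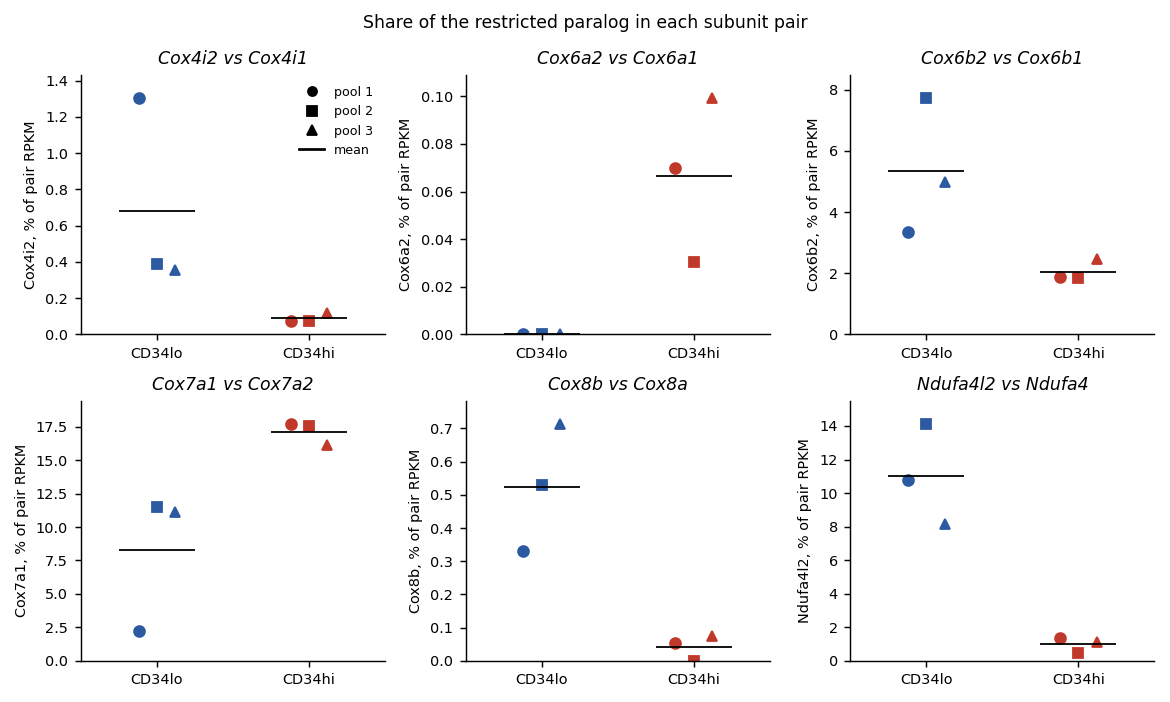
Share of the restricted form in the summed RPKM of each subunit pair (percent, 1 panel per pair, own axis from 0), with the 3 libraries of each population as points and their mean as a line. Ndufa4l2 averages 0.981% in CD34hi and 11.01% in CD34lo, Cox7a1 17.1% and 8.27%, and the remaining pairs stay below 8% in every library.

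None of the 17 complex V subunits passed the threshold in edgeR, DESeq2 or limma-voom, beside 35.6% of all tested genes in edgeR. Also 0 had an unadjusted p under 0.05 in edgeR, beside 45.5% of all tested genes. The median log2 fold change of the 17 was 0.03 and the values ran from -0.30 to 0.51. Atp5b, the catalytic beta subunit of the F1 head, was at 342, 346 and 267 CPM in CD34hi and 384, 340 and 301 CPM in CD34lo, with overlap (log2 fold change -0.10 ± 0.15 SE, 95% interval -0.40 to 0.20). The 5 F1 head subunits had a median of -0.0025 and the 4 peripheral stalk subunits of -0.07. Atp5pb, of the peripheral stalk, was at 96.9, 98.4 and 82.0 CPM in CD34hi and 81.4, 76.3 and 74.3 CPM in CD34lo, which did not overlap (log2 fold change 0.26 ± 0.11 SE, adjusted p = 0.114). It passed without CD34hi pool 3 (adjusted p = 0.0429), and 37.6% of its transcript windows are shared with other genes. The c ring, which turns as protons pass, is encoded by 3 genes for the same mature protein. Of their summed RPKM, Atp5g3 held 89.9%, 90.3% and 90.9% in CD34hi and 90.1%, 89.0% and 88.0% in CD34lo, Atp5g1 6.92% ± 1.15 and 9.06% ± 0.806, and Atp5g2 2.71% ± 0.679 and 1.92% ± 0.418 (SD, n = 3). Atp5g3 was at 91.99, 89.6 and 70.1 CPM in CD34hi and 93.1, 67.8 and 76.99 CPM in CD34lo (log2 fold change 0.08 ± 0.16 SE). The groups overlapped for Atp5g3 and for Atp5g1, which was at 10.5, 8.89 and 5.64 CPM in CD34hi and 10.8, 9.21 and 10.7 CPM in CD34lo (-0.30 ± 0.22 SE). They did not overlap for Atp5g2, at 2.01, 2.51 and 2.51 CPM in CD34hi and 1.77, 1.15 and 1.99 CPM in CD34lo (0.51 ± 0.28 SE), but none of the 3 passed the threshold.

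By length-scaled level, the subunits spanned from 0 to 193 RPKM as means over the 6 libraries. Cox4i1 was the most abundant (193 RPKM), followed by Atp5b (176), Uqcrh (135), Atp5g3 (120), Cox6a1 (120), Atp5a1 (119) and Atp5e (116), and these 7 were the members above 100 RPKM. Over the 6 libraries, each of these overlapped the next in the order except Atp5b (142 to 204 RPKM) and Uqcrh (126 to 139 RPKM). Below 5 RPKM were 14 members, among them the restricted forms Ndufa4l2, Cox6b2, Cox7a1, Cox4i2, Cox8b and Cox6a2, but also Sdhd (2.96), Ndufs5 (1.26) and Ndufb4 (2.32), of which Ndufs5 and Ndufb4 share transcript windows with pseudogenes or close copies (21.7% and 37.0%). Of the 85 subunits with a reference transcript, 17 shared over 20% of their 50-base windows with other genes, and 22 of the 87 overlap another gene of the table. Sdhd is among the latter, with an unnamed gene on the opposite strand overlapping it by 4334 bases.

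The 13 subunits encoded by mitochondrial DNA assemble with the nuclear ones in complexes I, III, IV and V. All had negative log2 fold changes (median -0.48), beside 7679 negative values among the 15219 tested genes. They shifted together in pool 3, down in its CD34hi library and up in its CD34lo library. Their signs are therefore not separate observations. Of the 13, 4 (30.8%) were higher in CD34lo, beside 18.7% of all tested genes in this direction and 35.6% in either. These were mt-Nd3 (log2 fold change -0.91 ± 0.18 SE, adjusted p = 0.00452), mt-Cytb (-0.81 ± 0.20), mt-Nd5 (-0.80 ± 0.19) and mt-Nd4 (-0.69 ± 0.22). The spread over pools was uneven. The mtDNA-encoded sum was 20210, 17400 and 13900 RPKM in CD34hi and 19750, 18890 and 27930 RPKM in CD34lo, a ratio of 1.02, 0.921 and 0.498 in pools 1, 2 and 3. Pool 3 held both the highest and the lowest library. Without it, 7 of the 13 values were negative, their median was -0.14 and 2 of the 13 passed, and without the CD34lo library of pool 3 alone 11 of 13 were negative with a median of -0.29. Of single libraries, leaving out CD34hi pool 2, CD34hi pool 3, CD34lo pool 1 or CD34lo pool 3 ended the call of mt-Nd4 (adjusted p of 0.107, 0.0977, 0.0631 and 0.133). The nuclear members had a median difference within pools of 0.06, 0.20 and -0.07 in log2 CPM, so that in pool 3, where mtDNA-encoded transcripts were lowest in CD34hi, their median lay slightly below 0.

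A further list of 8 genes holds electron carriers, enzymes that feed electrons to ubiquinone beside complexes I and II, and Cyc1. Cyc1 is cytochrome c1 of complex III, whose symbol lies outside the member rule (log2 fold change -0.26 ± 0.16 SE, adjusted p = 0.230, edgeR). Of the 8, 3 were higher in CD34hi and 0 in CD34lo, also at an unadjusted p under 0.05 (edgeR). The share of 37.5% stands beside 35.6% of all tested genes (16.9% towards CD34hi and 18.7% towards CD34lo). At an unadjusted p under 0.05 it stands beside 45.5%. Etfa, the alpha subunit of the electron transfer flavoprotein that takes electrons from fatty acid oxidation, was at 138, 149 and 129 CPM in CD34hi and 59.1, 70.3 and 63.4 CPM in CD34lo, 2.16-fold higher (log2 fold change 1.11 ± 0.12 SE, adjusted p = 0.000144). Sqor, which oxidises sulfide, was at 47.1, 47.7 and 56.2 CPM in CD34hi and 21.8, 26.8 and 22.3 CPM in CD34lo, 2.13-fold higher (1.09 ± 0.13 SE, adjusted p = 0.000305). Both passed under each of 17 alternatives. Etfdh, which passes electrons from Etfa and its partner to ubiquinone, was at 30.4, 30.9 and 30.6 CPM in CD34hi and 23.7, 24.3 and 20.8 CPM in CD34lo (0.42 ± 0.11 SE, adjusted p = 0.0196), a call lost without CD34hi pool 2 (0.0744) or CD34lo pool 3 (0.0531).

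Assembly factors, which build the complexes but are not part of them, passed in 9 of 55 cases (16.4%, beside 35.6% of all tested genes), 6 higher in CD34hi and 3 in CD34lo, with a median log2 fold change of 0.15. Uqcc2 of complex III was higher in CD34hi in 3 of 3 pools (1.11 ± 0.20 SE, adjusted p = 0.0025), as was Atpaf1 of complex V (1.00 ± 0.23 SE, adjusted p = 0.00909). Sdhaf4, which helps to join Sdha to Sdhb, was at 7.07, 7.70 and 6.62 CPM in CD34hi and 3.62, 3.49 and 5.27 CPM in CD34lo (0.79 ± 0.21 SE, adjusted p = 0.0163), a call lost without CD34hi pool 2 (adjusted p = 0.0653). For complex IV, Coa5 (0.56 ± 0.14 SE) and Cox15 (0.52 ± 0.18 SE) were higher in CD34hi and Cox20 (-0.55 ± 0.12 SE) and Cox19 (-0.53 ± 0.14 SE) in CD34lo. For complex I, Ndufaf4 was higher in CD34hi (0.79 ± 0.25 SE) and Nubpl in CD34lo (-0.93 ± 0.28 SE). The calls of Ndufaf4 (adjusted p up to 0.135, without CD34hi pool 2), Nubpl (up to 0.134, without CD34hi pool 1), Cox15 (up to 0.126, without CD34hi pool 3) and Cox19 (up to 0.0738, without CD34hi pool 1) were each lost on leaving out any of 5 of the 6 libraries, and that of Cox20 was lost without CD34hi pool 2 (0.0502).

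Of 21 regulators of mitochondrial biogenesis, 0 were higher in CD34hi, beside 16.9% of all tested genes in this direction. In CD34lo 3 (14.3%) were higher, beside 18.7% of all tested genes in this direction. At an unadjusted p under 0.05 (edgeR) the same 3 passed and again 0 towards CD34hi, beside 45.5% of all tested genes in either direction. The 3 were the coactivator Ppargc1b (-1.54 ± 0.36 SE, adjusted p = 0.00982), Mterf4, which acts in mitochondrial ribosome assembly, (-1.03 ± 0.16 SE) and the mtDNA helicase Twnk (-0.68 ± 0.17 SE). Ppargc1b lost its call without CD34hi pool 2 (adjusted p = 0.0526), and Twnk without CD34hi pool 1 (0.077), CD34hi pool 2 (0.0657) or CD34lo pool 1 (0.053). Nrf1 (log2 fold change -0.03 ± 0.14 SE) and Gabpa (0.10 ± 0.12 SE) did not differ past the threshold. Other factors of the ETS family were not examined, and a link of any factor to the promoter letters was not tested. The nuclear receptor Esrra was at -0.11 ± 0.18 SE and Tfam, the packaging factor of mtDNA, at -0.34 ± 0.18 SE, neither past the threshold. The coactivator Ppargc1a was at 0.403, 0.386 and 0.309 CPM in CD34hi and 0.147, 0.971 and 1.03 CPM in CD34lo, and passed only without CD34lo pool 1 (log2 fold change -1.42, adjusted p = 0.0322).

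Of the 13 TCA cycle genes outside complex II, 1 passed (7.69%, beside 35.6% of all tested genes). It was the succinyl-CoA ligase subunit Sucla2, which makes succinate (0.42 ± 0.12 SE, adjusted p = 0.0257, edgeR). This call was lost without any of the single libraries other than CD34hi pool 3, with adjusted p of 0.0697 and 0.122 without CD34hi pools 1 and 2 and of 0.0522, 0.0525 and 0.062 without CD34lo pools 1, 2 and 3. Among carriers and porins, 2 of 6 passed (33.3%, beside 35.6% of all tested genes). Vdac3 of the outer membrane was higher in CD34hi (0.66 ± 0.14 SE, adjusted p = 0.0066, edgeR). The ADP/ATP carrier Slc25a5 was higher in CD34lo (-0.63 ± 0.20 SE, adjusted p = 0.0342, edgeR). The Slc25a5 call was lost on leaving out any single library except CD34lo pool 2, with an adjusted p of up to 0.128 without CD34lo pool 1. Ucp2, the only uncoupling protein gene tested, was 28.1, 28.0 and 39.6 CPM in CD34hi and 66.1, 78.3 and 58.1 CPM in CD34lo (-1.08 ± 0.17 SE, adjusted p = 0.00145). Of 77 mitochondrial ribosome genes, 5 were higher in CD34hi and 2 in CD34lo (9.09% in all, beside 35.6% of all tested genes), with a median of 0.10. The largest of these were Mrps18a (0.73 ± 0.12 SE), Mrpl33 (0.69 ± 0.15 SE) and Mrpl40 (0.63 ± 0.15 SE).

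**Figure D5:**
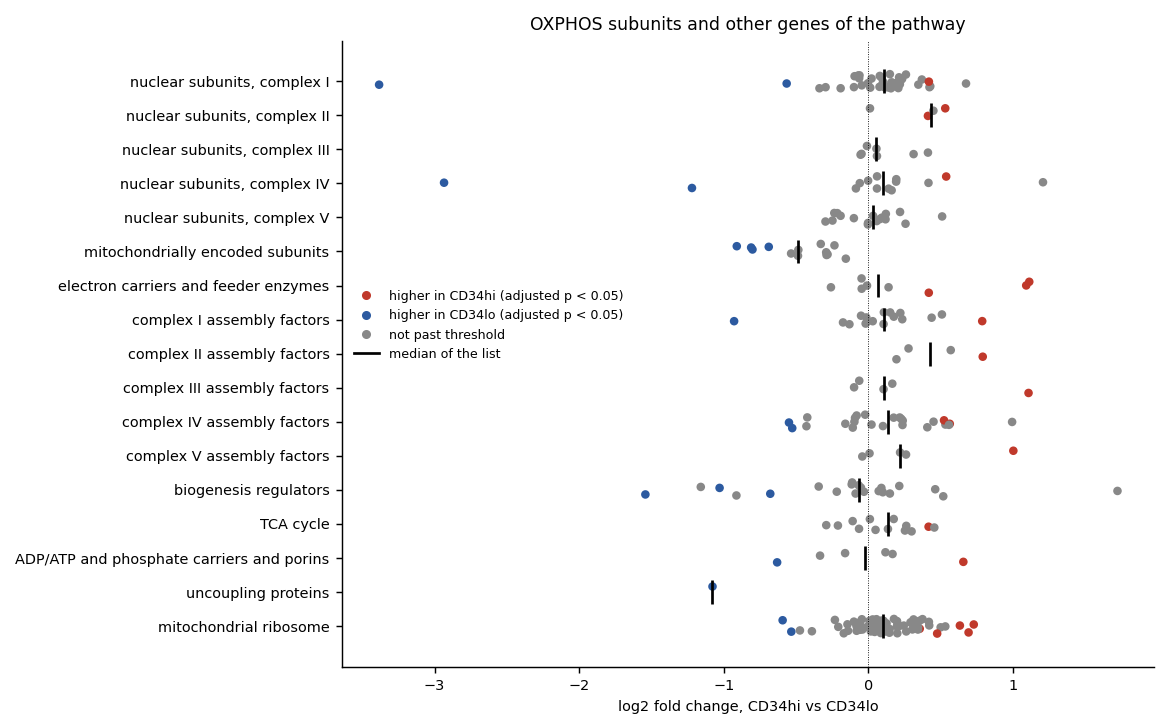
Log2 fold change (CD34hi against CD34lo) of the tested nuclear-encoded subunits by complex and of the genes of 12 other lists of the pathway, 1 point per gene, with the median of each list as a vertical line and genes past an adjusted p of 0.05 coloured. The 13 mtDNA-encoded subunits all lie left of 0 (median -0.48), complex II lies furthest right among the complexes (median 0.43), and Etfa and Sqor stand at 1.11 and 1.09.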

How the data were processed

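Whole-number read counts per gene, with a gene length, were deposited for 6 libraries. According to the paper's methods, GRCm38/mm10 was the authors' reference for alignment, and Rsubread gave the counts. The labels give poly(A) RNA and the TruSeq RNA v2 kit, which does not mark strand. The annotation, strand and multi-mapping settings are not given in the sources used here. The gene lengths, in bases, deposited by the authors were used only for RPKM. Gene symbols came from the RefSeq gene table of GRCm38.p6, matched for 25275 of 27179 gene identifiers.

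Counts were fitted with edgeR 4.0.16 (R 4.3.3): filterByExpr by population, TMM scaling, the quasi-likelihood test, and Benjamini-Hochberg adjustment over 15219 genes with a threshold of 0.05. Standard errors were taken as the size of the log2 fold change over the square root of the F statistic. CPM is counts scaled to library totals after TMM, and differences within pools are in log2 CPM with a prior count of 2. Totals of 28764779 to 52402410 counts put a floor of 3 counts at 0.0572 to 0.104 CPM, which covers counting error only. The common coefficient of variation between libraries was 19.7% (14.9% with the pool as a block).

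The labels give each library its mouse pool, so same-numbered libraries are paired by animals. The correlations of their deviations from the group means were 0.279, 0.0844 and 0.243. The main fit has no pool term because the study's methods name none. The fit with the pool as a block, other scalings and filters, DESeq2 1.42.0, limma-voom (limma 3.58.1) and leaving out libraries were alternatives. Transcript windows of 50 bases were compared with GENCODE transcripts on both strands.

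The members, gene lists and tests were chosen with earlier results of these data known. Values in every library are given for the subunits with the 2 largest and the smallest log2 fold change per complex, abundant core subunits and families with restricted paralogs, and for subunits near the threshold, chosen after their values were seen. From each other list the 3 largest called changes and 6 regulators are named. The values of 1 complex I subunit are not reported here, though it is counted in every total.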

Additional observations from a re-analysis of the deposited data

How the results depend on the processing

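Numbers of subunits past the threshold are small and move with the fit. With the replicate block, in which the mouse pool is a term, 8 subunits were higher in CD34hi, 5 of complex I and 1 of complex III passed, and Ndufb3, Uqcrb, Ndufa3 and Cox5b were gained; no call of a subunit was lost, and the CD34lo count did not move. Leaving out 1 pool or 1 library gave 0 to 8 subunits higher in CD34hi and 1 to 5 higher in CD34lo. It gave 1 to 4 for complex I, 0 to 2 for complex II, 0 to 1 for complex III, 0 to 4 for complex IV, 0 to 1 for complex V, 2 to 5 mtDNA-encoded subunits higher in CD34lo, 2 to 3 electron carriers and feeder enzymes higher in CD34hi, and 3468 to 5236 of all tested genes, lowest without pool 1. With a pool left out, 2 libraries remain per population. The median of the subunits stayed between 0.03 and 0.17 in these fits. Scaling, filter and tool gave 3 to 5 subunits higher in CD34hi and 3 to 5 in CD34lo, and moved the median of all genes by at most 0.052 (upper-quartile scaling).

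Sdhc, near 0, turned to -0.042 with upper-quartile scaling, -0.034 with library totals alone and -0.0046 with at least 10 counts in every library. Leaving out libraries turned the sign of 8 of the genes named in the text, whose log2 fold change was at most 0.11 in size, and, without pool 3, left 7 of the 13 mtDNA-encoded subunits negative (11 without the CD34lo library of pool 3). The lowest and highest values were -0.019 and 0.097 for Sdhc, -0.18 and 0.018 for Atp5b, -0.067 and 0.24 for Atp5g3, -0.18 and 0.042 for Cox7a2, -0.10 and 0.044 for Uqcrc1, -0.080 and 0.20 for Cox7b, -0.25 and 0.15 for Esrra and -0.12 and 0.11 for Nrf1. The cause was not tested. Ndufa4l2 passed in all 17 alternatives. Depth limits Cox4i2, Cox6a2 and Cox8b, and shared transcript sequence limits the levels of 17 subunits. For Uqcr11 the cause of the low count was not tested.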
